A study of Mus musculus with 24 samples.

Results

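The 10 genes described here belong to the insulin-like growth factor (IGF) pathway and were chosen by name from the 54232 genes listed for each cerebellum. They are the ligand gene Igf1, the binding protein genes Igfbp3, Igfbp4, Igfbp5 and Igfbp6, the receptor genes Igf1r, Insr and Igf2r, and the substrate genes Irs1 and Irs2. All 10 passed the filter on low counts, as did 22502 genes in all. Igfbp5 was included as a gene already known to change in SCA1, so its direction is a description rather than independent evidence. In SCA1 mice Igfbp5 RNA fell to 0.484 times the WT level (95% interval 0.401 to 0.584, 4 mice per genotype). Each of the other 9 genes differed from WT by an absolute log2 fold change of at most 0.32 there, and none passed the test in any genotype.

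The study asked what becomes of SCA1, a polyglutamine ataxia in which cerebellar Purkinje cells degenerate, when the serine S776 of ATXN1 can no longer be phosphorylated. RNA was sequenced from whole cerebella of 24 mice aged 6 weeks, with 8 WT mice and 4 mice of each of the other genotypes. All genotypes shared a C57BL/6J background, and all alleles sat at the endogenous Atxn1 locus without a transgene or Cre. WT mice carried unexpanded Atxn1 alleles only. SCA1 mice carried 1 knock-in allele with an expanded CAG repeat beside 1 unexpanded allele. SCA1 S776A mice had the serine replaced by alanine on the expanded allele alone, and S776A double mice had it replaced on the expanded and on the unexpanded allele. WT S776A homozygous mice, whose label reads 2q-s776a, carried the alanine on both unexpanded alleles and no expansion. The edited alleles were made with CRISPR/Cas9 and also carry synonymous changes for genotyping. More than 1 founder line was made, and the labels do not say which line gave the sequenced mice.

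IGF1 and IGF2 are secreted hormones and local growth factors. They bind the IGF1 receptor tyrosine kinase, which like the related insulin receptor signals through IRS docking proteins to the PI3K, AKT and mTOR cascade. IGF binding proteins hold the ligands outside cells and either restrain or prolong their action, while the IGF2 receptor clears IGF2 and sorts lysosomal enzymes. In the cerebellum IGF1 acts as a survival and growth factor for Purkinje and granule neurons.

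The libraries held 62163600 to 88430180 fragments on genes. Their mapping shares split them into 16 mice sequenced in batch 1 (4 mice each of WT and of the 3 genotypes with the expansion) and 8 in batch 2 (4 WT and 4 WT S776A homozygous mice), and each genotype was compared with the WT mice of its own batch. The batch was inferred from the files and is in none of the labels. Xist RNA, which marks females, exceeded 10 CPM (counts scaled to a common library size) in 1 S776A double mouse and no other mouse of batch 1, in 2 of 4 WT mice of batch 2 and in 2 of 4 WT S776A homozygous mice. WT S776A homozygous replicate 4 stood apart in its mitochondrial share, 6.73% of fragments on genes against at most 4.82% in any other mouse. Markers of granule neurons summed to 5701 to 8762 CPM in every mouse and those of forebrain neurons to 7.49 to 12.5 CPM. The comparisons of the 3 genotypes with the expansion against WT share the same 4 WT mice. Each library carries its own animal number in the labels, which name no litter or day of dissection.

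Levels of the 10 genes in WT cerebellum were compared per length, as CPM per kilobase of exon. Igfbp5 was the most abundant, at 41.7 ± 4.12 CPM per kilobase (SD, n = 8 WT mice of both batches). Igfbp6 followed at 19.9 ± 3.68, Irs2 at 12.0 ± 0.897 and Igf2r at 8.25 ± 1.26 CPM per kilobase. Each of the first 3 lay above the next gene without overlap of the 8 mice.

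Igfbp3 (5.32 ± 0.742), Insr (5.25 ± 0.616), Igf1r (4.51 ± 0.777), Igfbp4 (2.90 ± 0.446) and Irs1 (2.11 ± 0.284 CPM per kilobase) came next. The ranges of neighbours overlapped from Igf2r down to Irs1, so the order of neighbours was not resolved. Genes further apart were, since every Igf2r value lay above those of Insr, Igf1r, Igfbp4 and Irs1. On this measure every Igfbp3, Insr and Igf1r value also lay above those of Irs1. However, Irs1 shares 2822 of its 9144 exon bases with another gene, and fragments there were not counted. Its level per length may thus be understated, and its place against Igfbp3, Insr, Igf1r and Igfbp4 was not resolved. Igf1, the only ligand among the 10, was lowest at 1.01 ± 0.0813 CPM per kilobase and lay below every Irs1 value. These are levels of RNA, and no protein was measured here.

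**Figure D1:**
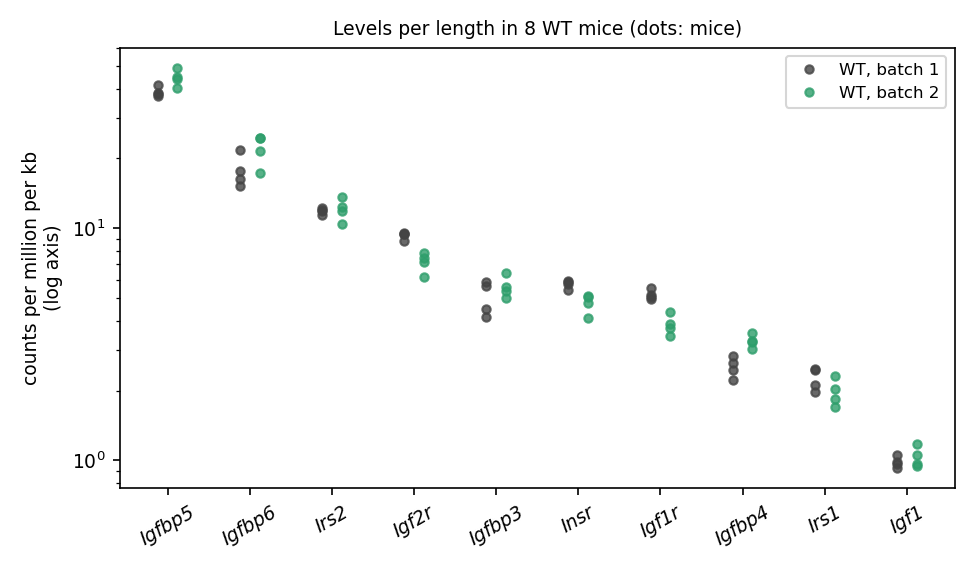
RNA level per exon length of the 10 genes in 8 WT cerebella, in CPM per kilobase on a log axis, with a dot for each mouse coloured by sequencing batch. Igfbp5 sits highest (mean 41.7) and Igf1 lowest (mean 1.01), and the genes between Igf2r and Irs1 overlap with their neighbours.

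The 2 WT groups, which are different mice from 2 batches, also differed in some of these genes. Xist RNA exceeded 10 CPM in 2 of the 4 in batch 2 and in 0 of the 4 in batch 1, so the batch was not their only difference. Between batches, the log2 CPM of WT mice differed without overlap for Igfbp4, higher by 0.37 in batch 2. It also did for Igf1r (-0.43), Igf2r (-0.38) and Insr (-0.27), all lower in batch 2. The share of all genes that differed so was not counted. For Igfbp5 the difference was 0.20 and the ranges overlapped. For the 3 receptor genes these differences were larger in size than any difference between a genotype and the WT mice of its batch.

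Igfbp5 encodes a secreted IGF binding protein that also attaches to extracellular matrix. The gene (ENSMUSG00000026185.8) lies on the minus strand at chr1:72857932-72874884 in GRCm38, the build of all positions given here, and shares no exon bases with another gene. The 250 bases before its RefSeq start (GRCm38.p6, chr1:72874866-72875115, minus strand) are shown because Igfbp5 is the member that changed, with a TATA-like box in capitals.
Igfbp5 upstream: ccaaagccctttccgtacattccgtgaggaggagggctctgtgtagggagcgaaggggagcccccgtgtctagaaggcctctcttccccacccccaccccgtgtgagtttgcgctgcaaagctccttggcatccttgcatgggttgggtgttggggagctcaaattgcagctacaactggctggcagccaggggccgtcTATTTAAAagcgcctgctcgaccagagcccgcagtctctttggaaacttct

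The box TATTTAAA began 51 bases before the RefSeq start and 32 bases before the start that GENCODE M21 gives. It was picked out after the sequence was seen, and 594 of 32851 promoters (1.81%) held it on either strand in windows of 250 bases before to 50 after the start. The GC content of the 250 bases was 58.8%, against a median of 52.4% over the same stretch of all promoters. The octamers bound by Capicua, a repressor that partners ATXN1 (TGAATGAA, TCAATGAA, TGAATGGA and TCAATGGA, both strands), were present in 0 of the 9 member promoters with an entry and in 1260 of 32851 promoters (3.84%). No match says only that these letters are not in the window.

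In batch 1 the Igfbp5 level was 228.2, 223.5, 229.8 and 249.7 CPM in the 4 WT mice. In the 4 SCA1 mice it was 107.1, 118.8, 119.3 and 105.4 CPM. The highest SCA1 mouse lay far below the lowest WT mouse, and the spread within each group was small against the gap, with 232.8 ± 11.6 CPM in WT and 112.6 ± 7.42 CPM in SCA1 mice (SD, n = 4 each). These levels rested on 7687 to 18163 fragments per mouse, so counting error was minor.

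Igfbp5 fell in SCA1 mice by 1.05 on the log2 scale (SE 0.13, 95% interval -1.32 to -0.78), with an adjusted p of 1e-04. Here and below, p comes from the quasi-likelihood test of edgeR and is adjusted over all genes tested by the method of Benjamini and Hochberg (BH). Genes were called where this adjusted p was under 0.01 and the log2 fold change over 0.5 in size. Igfbp5 was 1 of 10 members called, where 0.173% of all genes tested were called, and it ranked 9 by p among 22502 genes. It was also the 1 member of 10 that lay lower without overlap, where 4.99% of all genes did. The exact two-sided permutation test of log2 CPM gave p = 0.029, the smallest that 4 mice against 4 allow. In bulk tissue, fewer cells of a type and less RNA per cell cannot be told apart.

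In the 4 SCA1 S776A mice Igfbp5 stood at 137.4, 133.8, 180.9 and 151.7 CPM (mean 151.0 ± 21.4, SD). All 4 lay between the SCA1 and the WT mice, with no overlap on either side. The log2 difference from WT was -0.62 (SE 0.13, 95% interval -0.89 to -0.36), which is 0.649 times the WT level. It was not called, with an adjusted p of 0.157 by edgeR's quasi-likelihood test, BH-adjusted, although it ranked 11 by p of all genes tested. In this comparison 0.0133% of all genes were called and 2.52% lay lower without overlap, and 0 and 1 of the 10 members did. DESeq2 with the batch as a covariate did call it, with an adjusted p of 0.00677. With each mouse left out in turn, edgeR's adjusted p ran from 0.0101 to 0.595 and Igfbp5 was not called. The 0.0101 came without WT S776A homozygous replicate 4, which enters only the shared estimate of spread.

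S776A double mice had Igfbp5 levels of 152.2, 127.9, 123.8 and 176.1 CPM (mean 145.0 ± 24.2, SD). Like SCA1 S776A mice, all 4 lay above every SCA1 mouse and below every WT mouse of the batch. The log2 difference from WT was -0.68 (SE 0.13, 95% interval -0.95 to -0.41), or 0.623 times the WT level, with an adjusted p of 0.0385 by edgeR's quasi-likelihood test, BH-adjusted. That missed the threshold of 0.01, in a comparison where 0.0267% of all genes were called and 3.54% lay lower without overlap. The call depended on WT S776A homozygous replicate 4, a mouse outside the comparison that shares its estimate of spread. Without it the log2 difference was -0.69 and the adjusted p 0.00272. With other mice left out in turn there was no call, and the adjusted p reached 0.261. DESeq2 with the batch as a covariate gave an adjusted p of 0.000486. Replicate 1 of this group was the mouse with Xist RNA, and without it the log2 difference was -0.71 (adjusted p 0.126).

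**Figure D2:**
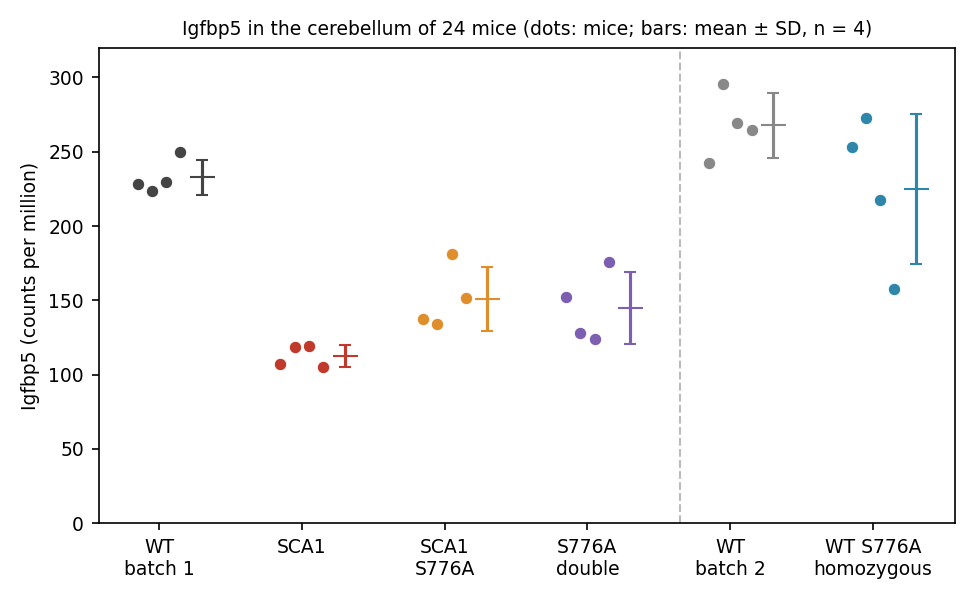
Igfbp5 level in CPM in the cerebellum of 24 mice by genotype and batch, with a dot for each mouse and bars for the mean ± SD (n = 4). The 4 SCA1 mice (105.4 to 119.3) lie below all others, and the SCA1 S776A and S776A double mice (123.8 to 180.9) lie between them and the WT mice of the batch (223.5 to 249.7).

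The direct comparisons tested the position between SCA1 and WT. Igfbp5 was 1.34 times the SCA1 level in SCA1 S776A mice (95% interval 1.11 to 1.62, log2 difference 0.42, SE 0.13). In S776A double mice it was 1.29 times the SCA1 level (95% interval 1.07 to 1.55, log2 difference 0.36, SE 0.13). All 16 pairs of mice went the same way in both, each with p = 0.029 by the exact two-sided permutation test, again the smallest possible. Neither passed the adjustment over all genes, with BH-adjusted p of 0.859 and 1 by edgeR's quasi-likelihood test. Igfbp5 was the 1 member of 10 that lay higher without overlap in each, where 1.73% and 1.57% of all genes did. The members called were 0 of 10 in each, where 0.00444% and 0% of all genes were called.

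S776A double and SCA1 S776A mice differed in Igfbp5 by -0.06 on the log2 scale (95% interval -0.33 to 0.21, exact two-sided permutation p = 0.66). The interval leaves room for a level from 0.797 to 1.16 times that of SCA1 S776A mice. A difference within those bounds was not excluded with 4 mice per group. With the 3 genotypes that carry the expansion averaged against WT, Igfbp5 fell by 0.79 (SE 0.10) with an adjusted p of 0.000183 by edgeR's quasi-likelihood test, BH-adjusted. It was 1 of 10 members called, where 0.0978% of all genes were.

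In batch 2 the WT mice had Igfbp5 levels of 242.5, 295.4, 269.0 and 264.5 CPM (mean 267.9 ± 21.7, SD). The WT S776A homozygous mice had 253.0, 272.5, 217.2 and 157.7 CPM (mean 225.1 ± 50.4). The groups overlapped, and the lowest value was that of replicate 4. The log2 difference was -0.25 (SE 0.13, 95% interval -0.52 to 0.02, adjusted p 0.506 by edgeR's quasi-likelihood test, BH-adjusted), and 12 of 16 pairs were lower (exact two-sided permutation p = 0.2).

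Xist RNA was present in replicate 3, the next lowest, and in replicate 4, which was the mouse with the high mitochondrial share. Without it the log2 difference in Igfbp5 was -0.12 (SE 0.11, adjusted p 1 by edgeR's quasi-likelihood test). Over all 4 mice it was -0.16 with the meninges markers as a covariate and -0.15 without the batch term. Markers of meninges and of mural cells, the cells that wrap blood vessels, had log2 fold changes below 0 in 6 of 6 genes each, with medians of -0.32 and -0.24, and 2 of each had an unadjusted p under 0.05. The meninges markers summed to 74.5 to 121 CPM against 109 to 125 CPM in WT, and the mural markers to 198 to 231 CPM against 235 to 276 CPM, while 0 of the 12 were called. The part of mural cells in the Igfbp5 value was not tested. By edgeR no gene of the 22502 was called in this comparison (0%). Of all genes 9.98% had an unadjusted p under 0.05, and 0 of the 10 members did. The effect of S776A on an unexpanded allele did not differ detectably with and without the expansion for Igfbp5, with an interaction of 0.19 on the log2 scale (95% interval -0.19 to 0.57). It was 0.06 without WT S776A homozygous replicate 4, 0.30 without their replicate 2 and 0.08 with the mean of meninges markers as a covariate. This contrast sets 1 edited unexpanded allele beside the expansion against 2 without it, so allele number and the expansion cannot be told apart in it.

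Markers of Purkinje cells, the neurons most affected in SCA1, were read beside Igfbp5. In SCA1 mice 7 of 7 markers (Pcp2, Calb1, Pvalb, Car8, Itpr1, Rgs8 and Ppp1r17) had a log2 fold change below 0, 6 of them with an unadjusted p under 0.05 where 4.32% of all genes were lower at that level, and 0 were called. Their median log2 fold change was -0.28, with a range from -0.53 for Rgs8 to -0.15 for Pvalb, so each was smaller in size than that of Igfbp5. Summed over the list, WT mice of batch 1 had 8398 to 9737 CPM, against 6419 to 7155 CPM in SCA1 mice, 7227 to 8397 CPM in SCA1 S776A mice and 7099.7 to 9189.5 CPM in S776A double mice. SCA1 mice lay below all 4 WT mice, the highest SCA1 S776A mouse was level with the lowest WT mouse, and S776A double mice overlapped with WT. The median log2 fold change of the markers was -0.08 in SCA1 S776A, -0.04 in S776A double and 0.02 in WT S776A homozygous mice. The part of Purkinje cells in the Igfbp5 result was not tested.

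Markers listed for other cell types differed in SCA1 mice too. Cerebellar interneuron markers had log2 fold changes below 0 in 6 of 6 genes (median -0.19). Of these, 3 had an unadjusted p under 0.05, where 4.32% of all genes were lower at that level. The 6 summed to 894 to 1021 CPM against 1046 to 1211 CPM in WT, without overlap. Oligodendrocyte markers were above 0 in 6 of 6 (median 0.17). Of these, 2 had an unadjusted p under 0.05, where 3.93% of all genes were higher at that level. The 6 summed to 6846 to 8404 CPM against 6263 to 7484 CPM in WT. Unipolar brush cell markers went both ways, with 4 of 6 below 0 and 2 above (from -0.44 to 0.61). Of these, 2 were lower and 1 was higher at an unadjusted p under 0.05. The 6 summed to 1343 to 1426 CPM against 1331 to 1441 CPM in WT. No gene on these lists was called. Whether they mark these cell types alone, and their part in the Igfbp5 result, was not tested.

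Choroid plexus, a tissue next to the cerebellum, also differed between mice. Summed over 6 markers, its RNA ranged from 34.2 to 1762 CPM among WT mice of batch 1 and from 914 to 5181 CPM among SCA1 mice. With the mean of these markers as a covariate the log2 fold change of Igfbp5 in SCA1 mice was -1.06 (adjusted p 0.000261 by edgeR's quasi-likelihood test, BH-adjusted).

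**Figure D3:**
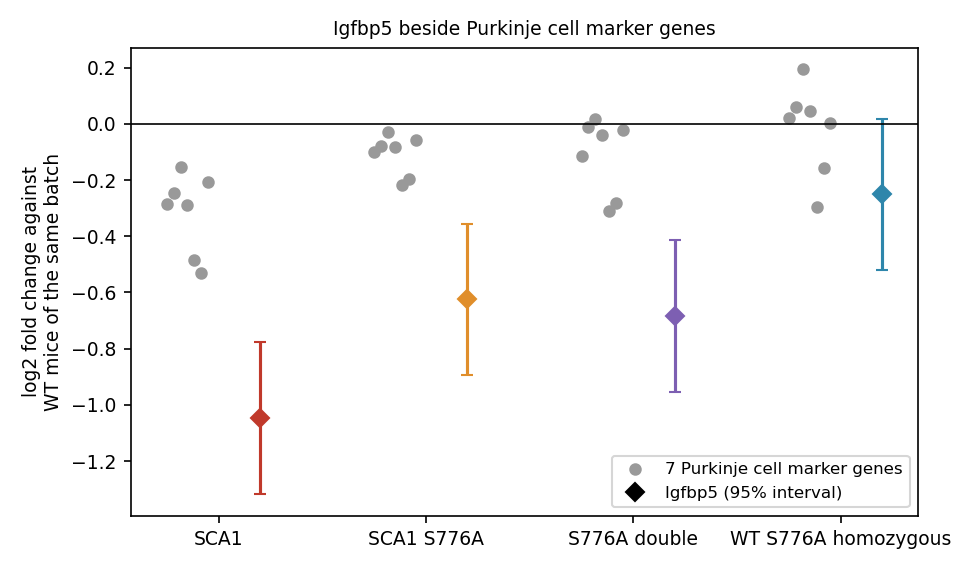
Log2 fold change against the WT mice of the same batch for 7 Purkinje cell marker genes (grey dots) and for Igfbp5 (diamonds, with 95% intervals) in 4 genotypes. In SCA1 mice all markers lie between -0.53 and -0.15 and Igfbp5 at -1.05, and in SCA1 S776A and S776A double mice Igfbp5 lies at -0.62 and -0.68 with marker medians of -0.08 and -0.04.

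Among 13352 expressed genes outside the 10, Clstn2, Rasal1 and 4930447F24Rik varied most like Igfbp5 across the 24 mice, after the WT mean of the batch was subtracted. Pearson's r was 0.96 for Clstn2, which encodes the synaptic adhesion protein calsyntenin 2. It was 0.92 for Rasal1, which encodes a RAS GTPase-activating protein, and 0.90 for the uncharacterized 4930447F24Rik. The points share genotype groups and libraries, so these correlations are a description. For Clstn2 the log2 fold change was -0.76 in SCA1, -0.51 in SCA1 S776A, -0.53 in S776A double and -0.21 in WT S776A homozygous mice. In the same order, those of Rasal1 were -1.03, -0.54, -0.83 and -0.23. For 4930447F24Rik they were -1.08, -0.77, -0.88 and -0.09. The 3 were called in SCA1 mice, where 0.173% of all genes were, with adjusted p of 0.00152, 0.000799 and 7.14e-06 by edgeR's quasi-likelihood test, BH-adjusted. Since they were picked for likeness to Igfbp5 in the same mice, these values and calls are no separate evidence.

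None of the 9 other members had such a likeness to Igfbp5. By the same measure Irs1 (r = 0.60) and Igf2r (0.56) were nearest, Igfbp4 was negative (-0.59), and Igfbp3 (0.01) and Igf1 (-0.13) were near 0.

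The other binding protein genes carried no call. Igfbp3 (chr11:7206086-7213923), which encodes the main carrier of IGF1 in blood, stood at 18.4, 14.0, 13.0 and 17.6 CPM in WT mice of batch 1 and at 12.4, 16.1, 15.1 and 19.3 CPM in SCA1 mice. The groups overlapped, and the 95% interval of the log2 fold change was -0.32 to 0.31. Its highest group mean was that of S776A double mice, at 19.0 ± 2.43 CPM (log2 fold change 0.27, SE 0.15, adjusted p 0.77 by edgeR's quasi-likelihood test).

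Igfbp4 (chr11:99041244-99054392), a binding protein that inhibits IGF action and is cleaved by the protease PAPPA, was 9.78, 10.9, 12.5 and 11.6 CPM in WT and 12.3, 14.7, 11.2 and 16.0 CPM in SCA1 mice. The groups overlapped, with a log2 fold change of 0.28 (SE 0.15, 95% interval -0.04 to 0.60, adjusted p 0.675 by edgeR's quasi-likelihood test, BH-adjusted). In WT S776A homozygous mice the log2 fold change was 0.06, and without replicate 4, which had the highest level of all 24 mice at 21.1 CPM, it was -0.15. Igfbp6 (chr15:102144362-102149511), a binding protein that prefers IGF2, was 19.8 ± 3.15 CPM in WT and 16.6 ± 4.44 CPM in SCA1 mice (log2 fold change -0.26, 95% interval -0.60 to 0.09). In the remaining genotypes Igfbp6 differed from WT by -0.02, -0.20 and -0.25, and its groups overlapped in every comparison.

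Igf1 (chr10:87858265-87937042), the ligand, varied little. Its group means ran from 9.60 to 10.3 CPM over all genotypes and both batches, and the log2 fold changes lay between -0.02 and 0.04 in the 4 genotypes. In SCA1 mice the 95% interval of the log2 fold change was -0.22 to 0.17, which bounds the level between 0.861 and 1.13 times that of WT. The level rested on 597 to 997 fragments per mouse.

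The 3 receptor genes were also close to WT in every genotype. Igf1r (chr7:67952827-68233668), the receptor kinase that binds IGF1, was 87.0 ± 4.48 CPM in WT and 87.2 ± 3.55 CPM in SCA1 mice (log2 fold change 0.00, 95% interval -0.21 to 0.22). Insr (chr8:3122061-3279617), the insulin receptor, was 78.7 ± 3.07 and 76.2 ± 2.16 CPM (log2 fold change -0.05, 95% interval -0.19 to 0.09). Its interval was the narrowest of the 10. Igf2r (chr17:12682406-12769664), the clearance receptor for IGF2, was 86.8 ± 3.28 and 79.4 ± 4.88 CPM (log2 fold change -0.13, 95% interval -0.33 to 0.07).

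The log2 difference of Igf2r from WT was -0.14 in WT S776A homozygous mice (-0.05 without replicate 4), -0.15 in S776A double and -0.09 in SCA1 S776A mice, without passing the test in any. Its lowest levels were those of WT S776A homozygous replicates 3 and 4, at 54.8 and 48.0 CPM. The same 2 mice had the lowest Igf1r levels, 49.2 and 52.8 CPM. They were the mice of their group with Xist RNA, and they had its highest mitochondrial shares, 4.82% and 6.73%. The part of either in these levels was not tested.

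The substrate genes encode docking proteins that link the receptors to PI3K. Irs1 (chr1:82233101-82291416) was 22.7, 18.0, 22.3 and 19.4 CPM in WT and 17.4, 19.3, 17.4 and 11.7 CPM in SCA1 mice. Its log2 fold change in SCA1 mice was -0.32 (SE 0.17, 95% interval -0.68 to 0.03, adjusted p 0.652 by edgeR's quasi-likelihood test, BH-adjusted), and the groups overlapped. Without SCA1 replicate 4, the mouse at 11.7 CPM, it was -0.20. In SCA1 S776A and S776A double mice it was -0.06 and -0.18. The counting used no strand, and 2822 exon bases of Irs1 are shared with the antisense gene Gm9747. Fragments that overlap exons of 2 genes were set aside as ambiguous and counted for neither. The Irs1 level therefore leaves out fragments on the shared bases.

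Irs2 (chr8:10984681-11008458) was 75.2 ± 2.41 CPM in WT and 73.4 ± 9.44 CPM in SCA1 mice (log2 fold change -0.03, 95% interval -0.29 to 0.22), with 162 exon bases shared with the antisense gene 9530052E02Rik. In WT S776A homozygous mice Irs2 was 82.4, 72.9, 61.6 and 46.2 CPM against 78.0, 74.8, 66.3 and 86.3 CPM in WT, a log2 difference of -0.21 (SE 0.12). Replicate 4 was again lowest, and without it the difference was -0.08 (SE 0.10).

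**Figure D4:**
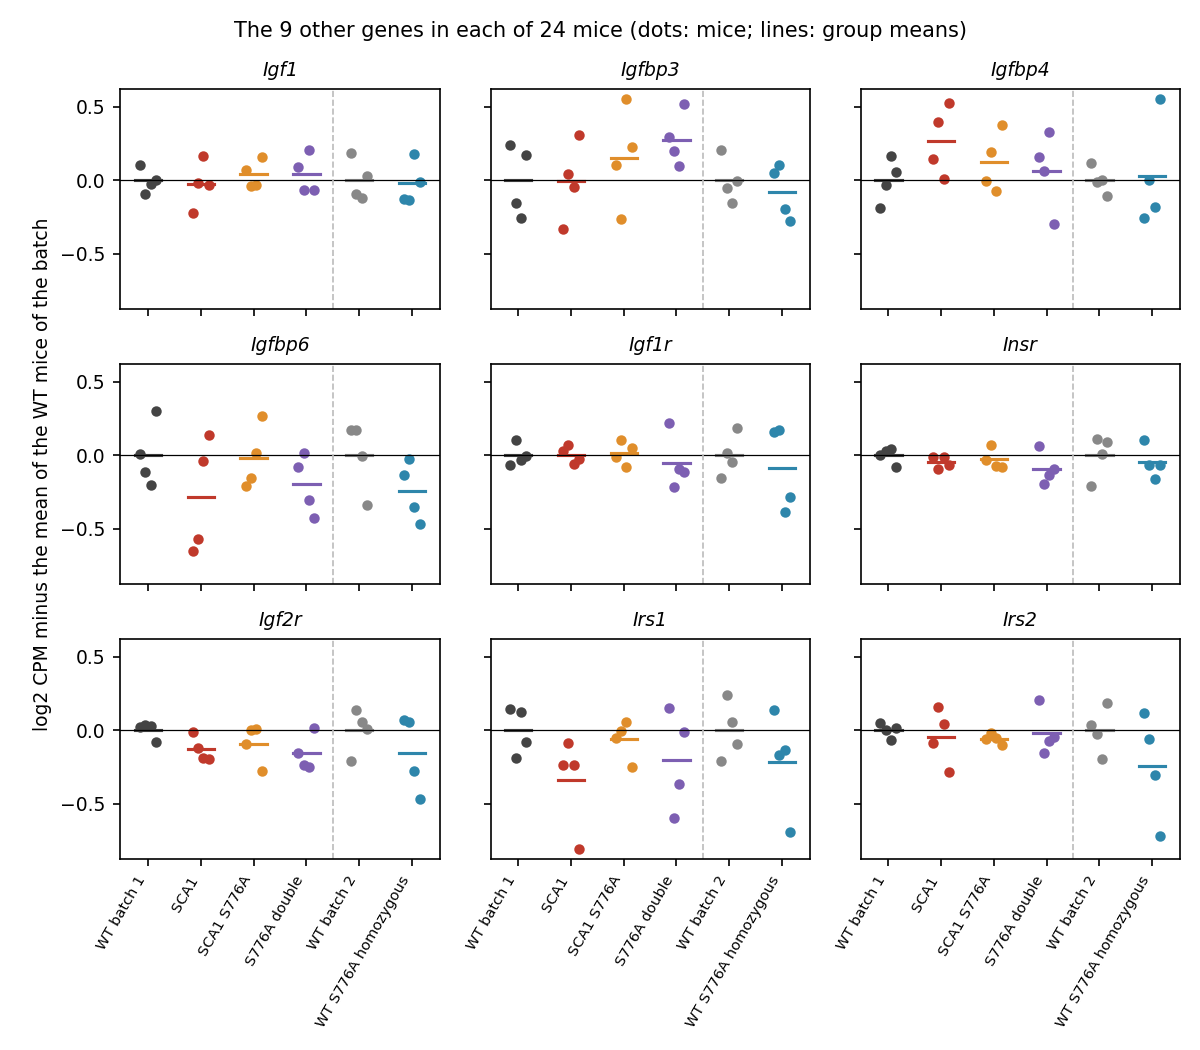
Log2 CPM of each of the 9 other genes in 24 mice, minus the mean of the WT mice of the same batch, with a dot for each mouse and a line for each group mean. The mice of every genotype overlap with WT in each panel, and the fitted log2 fold changes lie between -0.32 and 0.28.

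Counted over the 10 genes, 1 was called in SCA1, 0 in SCA1 S776A, 0 in S776A double and 0 in WT S776A homozygous mice. The median log2 fold change of the 10 was -0.04, -0.02, -0.06 and -0.11 in these 4 genotypes, against medians of at most 0.015 in size over all genes tested. With 1 of the 4 WT S776A homozygous mice left out, their median ran from -0.20 (without replicate 1) to -0.06 (without replicate 4). The 95% interval lay within an absolute log2 fold change of 0.5 for 6, 9, 6 and 7 of the 10. In SCA1 mice it reached past that size for Irs1, Igfbp4 and Igfbp6. A change of that size was not excluded for them with 4 mice per group.

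**Figure D5:**
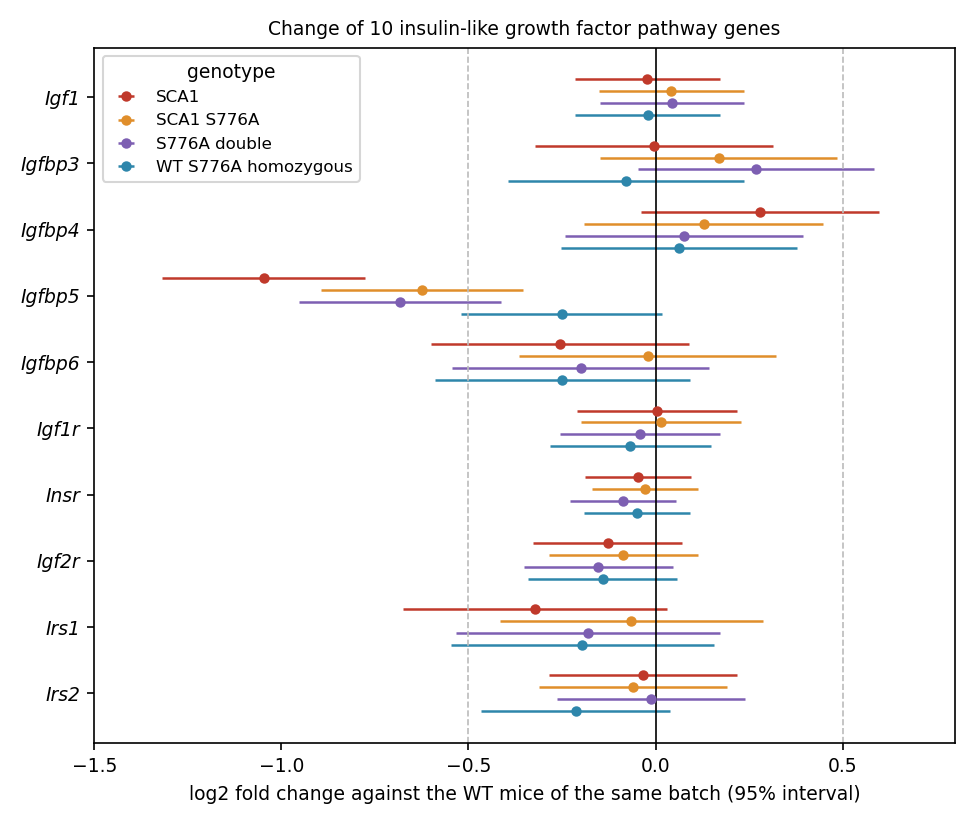
Log2 fold change with 95% interval for the 10 genes in 4 genotypes, each against the WT mice of its batch. Igfbp5 lies at -1.05 for SCA1, at -0.62 for SCA1 S776A and at -0.68 for S776A double mice, with intervals that leave out 0, and the intervals of all other genes include 0.

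A further 48 genes of the pathway, listed by function, were examined beside the 10. Of these 47 were tested and Irs4, with 0 to 23 fragments per mouse, was not. None was called in any comparison. In SCA1 mice 1 was lower and 2 were higher at an unadjusted p under 0.05, where 4.32% and 3.93% of all genes were. Their median log2 fold change in SCA1 mice was -0.04 over the list and 0.00 over all genes tested.

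Grb10, an adaptor that binds the insulin and IGF1 receptors and dampens their signal, was 32.0 to 36.5 CPM in WT mice of batch 1. In SCA1 mice it was 40.6 to 44.2 CPM, higher without overlap, as were 3.77% of all genes tested. Its log2 fold change was 0.28 (SE 0.06, adjusted p 0.0408 by edgeR's quasi-likelihood test, BH-adjusted), past neither threshold. In SCA1 S776A and S776A double mice it was 0.22 in each (adjusted p 0.789 and 0.398), and in WT S776A homozygous mice 0.03. The related adaptor Grb14 was 0.20 in SCA1 mice (adjusted p 0.538), and Socs3, a feedback inhibitor of cytokine signalling, was 0.28 (adjusted p 0.719).

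Among 12 genes for ligands, binding proteins and their proteases, Stc2, an inhibitor of the PAPPA proteases, had the lowest adjusted p in SCA1 mice, at 3.42 ± 0.545 CPM against 4.71 ± 0.921 CPM in WT. Its log2 fold change was -0.46 (SE 0.15, adjusted p 0.273 by edgeR's quasi-likelihood test, BH-adjusted). Ins2 was 1.88 with an SE of 0.93 and Igfbp7 0.31 with an SE of 0.16. Igfbp2, which the naming rule did not pick and which was named after its values were seen, was 46.2 ± 25.7 CPM in WT and 90.1 ± 48.4 CPM in SCA1 mice (log2 fold change 0.96, 95% interval -0.19 to 2.12). The choroid plexus markers varied beside it with the values above, and their part was not tested.

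The 23 genes of the PI3K, AKT and mTOR cascade had log2 fold changes from -0.22 to 0.12 in SCA1 mice, and 0 had an unadjusted p under 0.05, where 8.25% of all genes did. Foxo3, a transcription factor that AKT keeps out of the nucleus, was the lowest by adjusted p (-0.22, SE 0.11, adjusted p 0.634 by edgeR's quasi-likelihood test, BH-adjusted). Rptor, a subunit of mTOR complex 1, was -0.16 and Pik3r1, a regulatory subunit of PI3K, 0.10.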

How the data were processed

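Per the labels and the methods, total RNA of 24 mouse cerebella was sequenced as paired ends. The authors trimmed reads with Trimmomatic 0.36, aligned them with STAR 2.7.2d to GRCm38.p6 and deposited unnormalized fragment counts per gene. The unstranded counts were used. Batch correction in the study came later and is not in these counts. Of 54232 gene identifiers, 52566 matched GENCODE M21, 1599 more, Igf2r among them, matched without their version, and 67 did not match. In each file, 1 further row is not analysed here, and 1 Purkinje cell marker of the list is not reported here.

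The 24 libraries were split into 2 parts by k-means (50 starts) on 4 mapping shares (mean silhouette 0.634), and a split on 500 genes variable among WT mice placed all 24 in the same parts. The share of fragments outside genes was 9.52% to 12.0% in batch 1 and 5.23% to 6.31% in batch 2.

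Counts were normalized by TMM (factors 0.944 to 1.056) and tested in R 4.3.3 with edgeR 4.0.16 (quasi-likelihood, robust), on the 22502 genes that its filter kept, in 1 model of genotype plus batch over all mice and Benjamini-Hochberg adjustment over all genes tested. Calls needed an adjusted p below 0.01 with a log2 fold change of more than 0.5 in size. The median biological coefficient of variation was 12.5%. CPM values use TMM library sizes, and log2 CPM a prior count of 2. Single values were compared by exact permutation tests. The scripts were tested on simulated data. Pairs of mice of 1 group differed beyond counting error.

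The members and lists were chosen with earlier results of these data known. The text names all 10 members, called pathway genes, 3 of each pathway group by adjusted p in SCA1 mice, and the 3 genes most like Igfbp5. Promoters came from RefSeq, with an entry for 9 of the 10 members. Alternatives were no batch term, ComBat-seq (sva 3.50.0) then DESeq2 1.42.0, DESeq2 with the batch as covariate, its size factors, 2 other filters, 1 batch only, other thresholds, covariates for Xist, choroid plexus and meninges, and leaving out each mouse.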

Additional observations from a re-analysis of the deposited data

Results flagged for a closer look

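Among 60 groups of 4 mice (10 genes in 6 groups), 1 held a mouse far from the other 3. The log2 CPM of Igf2r was 6.36 in WT replicate 4 of batch 1 and 6.46 to 6.48 in the other 3, a gap of 0.866 of the whole range, above the 95% critical value of Dixon's test for 4 mice. Chance flags about 1 in 20 such groups, or 3.0 of 60.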

How the results depend on the processing

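The 11 alternatives to the processing changed no direction for Igfbp5. Its call in SCA1 mice was kept in all 11 (log2 fold change -1.15 to -1.02) and with each mouse left out (-1.08 to -1.02, adjusted p at most 0.00116). In SCA1 S776A mice it was called, as 1 member of 10, by ComBat-seq then DESeq2 (-0.63) and by DESeq2 with the batch as a covariate (-0.62). In S776A double mice it was called, as 1 of 10, by these 2 fits (-0.68 and -0.69), without the batch term (-0.79) and at an adjusted p under 0.05 with no fold threshold (-0.68). Over all genes, ComBat-seq then DESeq2 called 32 genes in SCA1 S776A and 50 in S776A double mice, DESeq2 with the batch called 9 and 20, no batch term gave 4 in S776A double mice and the looser threshold 18, where the main analysis called 3 and 6. The cause was not tested. Leaving out single mice gave 0 to 1 members and 3 to 10 of all genes called in S776A double mice, with log2 fold changes of Igfbp5 from -0.79 to -0.62, and the Igfbp5 call and the 10 genes came without WT S776A homozygous replicate 4. All these adjusted p come from edgeR or DESeq2. For WT S776A homozygous mice against WT the values with 1 mouse left out ran from -0.36 to -0.12, the latter without their replicate 4. In that comparison ComBat-seq then DESeq2 called 99 of all genes, where the main analysis and DESeq2 with the batch called 0. Igfbp5 was not among the 99 (-0.26, adjusted p 0.219 by DESeq2). The exact tests lost their side of 0.05 with any mouse left out, since 3 against 4 cannot go below 0.057. Their differences then ran from -1.08 to -1.01 in SCA1, -0.72 to -0.58 in SCA1 S776A and -0.79 to -0.63 in S776A double mice against WT, and from 0.32 to 0.47 and 0.25 to 0.42 in SCA1 S776A and S776A double against SCA1 mice. Over all genes, SCA1 calls numbered 39 in the main analysis, 26 to 117 under the alternatives and 21 to 56 with 1 mouse left out, the 21 without SCA1 replicate 1 and the 56 without WT S776A homozygous replicate 4. No paired analysis was possible because the labels number animals and give no replicate number that groups share. With 4 mice per group, the 95% intervals of Irs1, Igfbp4 and Igfbp6 in SCA1 mice reached past 0.5 in size on the log2 scale. Changes of that size were not excluded for them, and no limit of detection was computed.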
